A study of Mus musculus with 6 samples.

Results

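CRY and PER proteins, the repressors of the mammalian circadian clock, are removed by phosphorylation and ubiquitination, and 9 genes of that machinery were followed here: the kinase genes Csnk1d, Csnk1e, Prkaa1 and Tlk2, the F-box genes Fbxl21, Btrc and Fbxw11, and the deubiquitinase genes Usp2 and Usp7. They were taken by symbol and matched to the Entrez identifiers of the count tables, which list 27179 genes. All 9 were found, and all 9 were among the 14069 genes with enough reads to be tested. RNA was sequenced from mouse embryonic fibroblasts (MEFs) of 3 lines with 2 libraries each. The CPN-/- line carries the genotype Cry1-/-, Cry2-/-, Per1-/-, Per2-/-, Nr1d1-/-, Nr1d2-/-, so all 3 lines lack both PER1 and PER2 and both NR1D nuclear receptors. CPN-/- CRY1 is the same genotype with exogenous mouse CRY1, and CPN-/- CRY2 the same with exogenous mouse CRY2. Both transgenes are driven by a viral promoter outside clock feedback, each CRY line was grown from 1 drug-selected colony, and the cells received no treatment. Because no line holds PER1 or PER2, the values below are transcript levels of enzymes whose substrates PER1 and PER2 were missing. Per3 is not among the deleted genes, and its transcript was found in all 3 lines.

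Casein kinase 1 delta and epsilon phosphorylate PER, and the F-box proteins beta-TrCP1 and beta-TrCP2, encoded by Btrc and Fbxw11, recognize phosphorylated PER for the SCF ubiquitin ligase. CRY is recognized in the same way by F-box proteins of SCF ligases, FBXL21 among them. AMPK, whose catalytic subunit alpha 1 is the product of Prkaa1, phosphorylates CRY1 and thereby lowers its stability. The proteases USP2 and USP7 remove ubiquitin from clock proteins including CRY, and Usp2 is itself known as a rhythmically transcribed clock output. TLK2 is a kinase of the ASF1 histone chaperones, and its degradation has been described as depending on CRY.

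Each library held 25957409 to 36106949 counted reads. Cry1 was highest in CPN-/- CRY1 (mean 177 CPM, read counts scaled to library size, against 120 in CPN-/- and 49.6 in CPN-/- CRY2), and Cry2 was highest in CPN-/- CRY2 (350 CPM against 132 and 51.2). The deleted genes were still transcribed, with at least 476 reads for each of the 6 in every library, so transcript counts alone do not show the protein loss. Of 10 fibroblast markers, 8 had at least 10 reads in every library, while Thy1 was at 1 to 7 reads and Dcn at 1 to 61. The summed level of the fibroblast markers was 11200 to 14100 CPM in CPN-/-, 13600 to 13900 in CPN-/- CRY1 and 17400 to 17800 in CPN-/- CRY2. Epithelial markers summed to at most 0.964 CPM and endothelial markers to at most 1 CPM, and Epcam and Cd3e were at 0 in all 6 libraries. Leukocyte markers summed to 1.92 to 2.34 CPM, with Cd68 as the one marker with at least 10 reads in every library. The 2 CPN-/- libraries differed more from each other than other replicates did: the SD of their log2 differences over genes was 0.45, against 0.26 in CPN-/- CRY1 and 0.27 in CPN-/- CRY2. In CPN-/- those differences followed transcript length (Spearman rho 0.69 over 12478 genes, which are not independent replicates), and calls with this trend removed are given below. In bulk RNA, fewer cells expressing a gene and less RNA per cell cannot be told apart.

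To ask how abundant these transcripts were relative to one another, CPM was divided by the length in kilobases of 1 RefSeq-matched coding transcript per gene. In CPN-/- the order on this per-kilobase scale was Csnk1d (60.5), Usp7 (46.3), Csnk1e (29.5), Fbxw11 (26.8), Prkaa1 (22.4), Tlk2 (19.5), Btrc (10.3), Usp2 (1.36) and Fbxl21 (0.492). Csnk1e and Fbxw11 overlapped between the 2 libraries, as did Fbxw11 with Prkaa1 and Prkaa1 with Tlk2, while Csnk1d, Usp7, Btrc, Usp2 and Fbxl21 each stood clear of the genes next to them in this order. In CPN-/- CRY1 the first places were exchanged, with Usp7 at 64.3 and Csnk1d at 50.4, and in CPN-/- CRY2 they returned to Csnk1d at 59.5 and Usp7 at 46.1. The 4 kinase genes lay within 13.7 to 60.5 CPM per kilobase in all line means, whereas the F-box genes spanned 0.253 to 29.7 and the deubiquitinase genes 0.82 to 64.3.

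**Figure D1:**
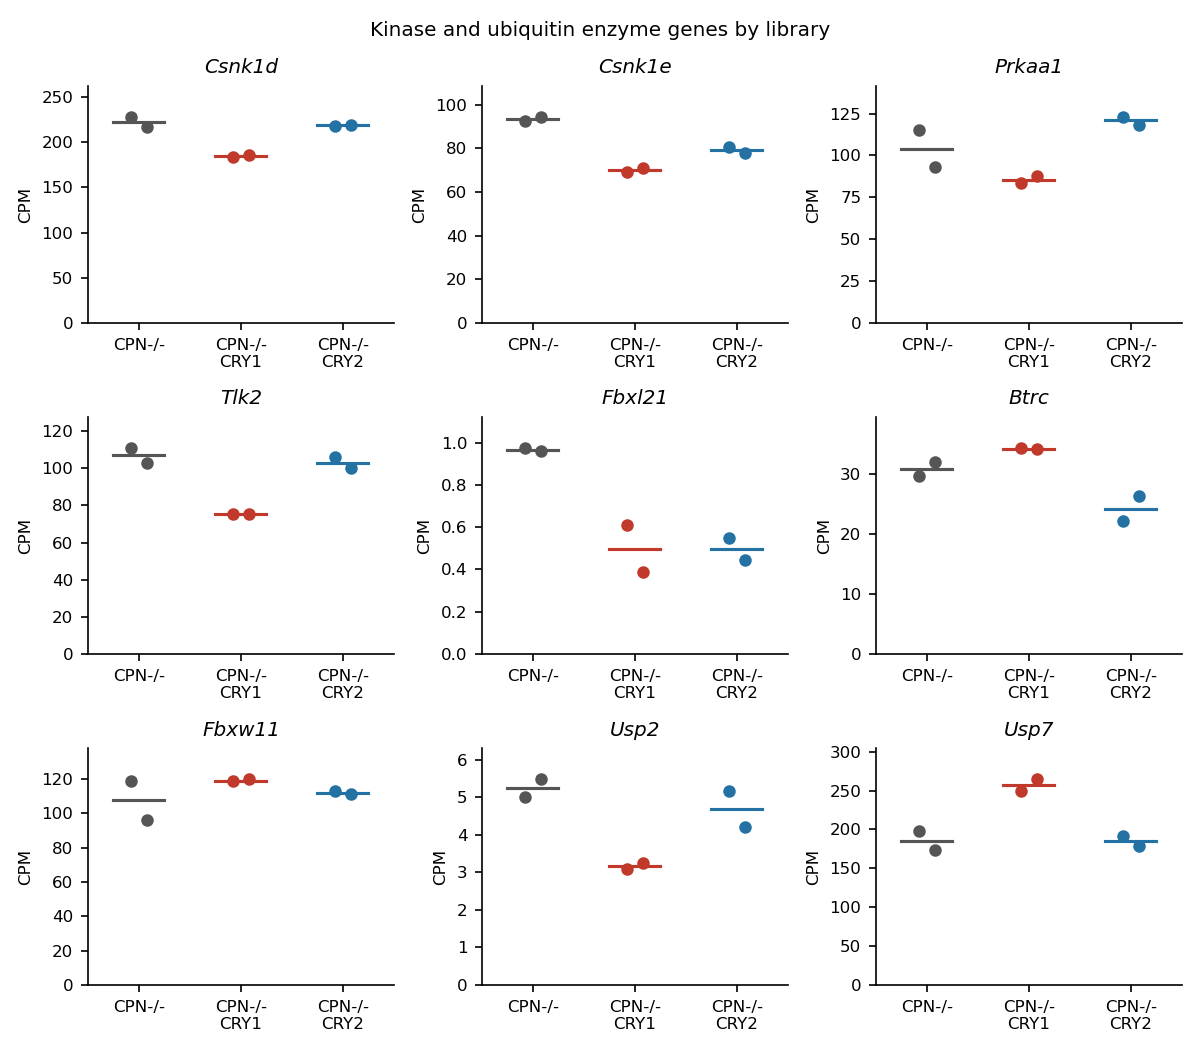
CPM (read counts scaled to library size, linear axis from 0) of each of the 9 genes in the 6 libraries; points are libraries and bars are the means of 2 libraries for CPN-/- (gray), CPN-/- CRY1 (red) and CPN-/- CRY2 (blue). Tlk2 and Usp2 are lowest and Usp7 is highest in CPN-/- CRY1, and the Fbxl21 axis ends near 1 CPM.

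Comparing CPN-/- CRY1 with CPN-/- asks which of these transcripts differed when CRY1 was the only repressor put back. Csnk1e, Tlk2 and Usp2 were lower and Usp7 was higher in CPN-/- CRY1, and the other 5 genes did not pass the test. The 4 calls among 9 genes stand beside 24.3% of all tested genes called in this comparison, 11.2% higher and 13.1% lower (Benjamini-Hochberg adjusted p under 0.05 over all tested genes, from edgeR's quasi-likelihood test). The median log2 fold change of the 9 genes was -0.29, against -0.007 over all tested genes. None of the differences reached 2-fold by the fitted value. The libraries did not overlap between the 2 lines for 8 of the 9 genes, beside 66.9% of all tested genes. These p-values measure the spread between RNA preparations of the same lines, each CRY line being 1 colony.

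Comparing CPN-/- CRY2 with the same 2 CPN-/- libraries asks the same of CRY2. No member passed the test (0 of 9, beside 6.66% of all tested genes called, 2.58% higher and 4.08% lower), and 3 had an unadjusted p under 0.05 (Fbxl21, Csnk1e and Btrc, all with lower values in CPN-/- CRY2). DESeq2's Wald test also called 0, with 2 at an unadjusted p under 0.05. The median log2 fold change was -0.05, against -0.008 over all tested genes.

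The third comparison sets the CRY lines against each other and so tests whether their differences from CPN-/- were unequal. Relative to CPN-/- CRY2, CPN-/- CRY1 had more Btrc and Usp7 and less Prkaa1 and Tlk2, which is 4 of 9 beside 16.3% of all tested genes called, 7.72% higher and 8.57% lower. Here 8 of 9 genes did not overlap between the lines, against 73.3% of all tested genes. The median log2 fold change was -0.18 for the 9 genes and -0.005 over all tested genes.

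**Figure D2:**
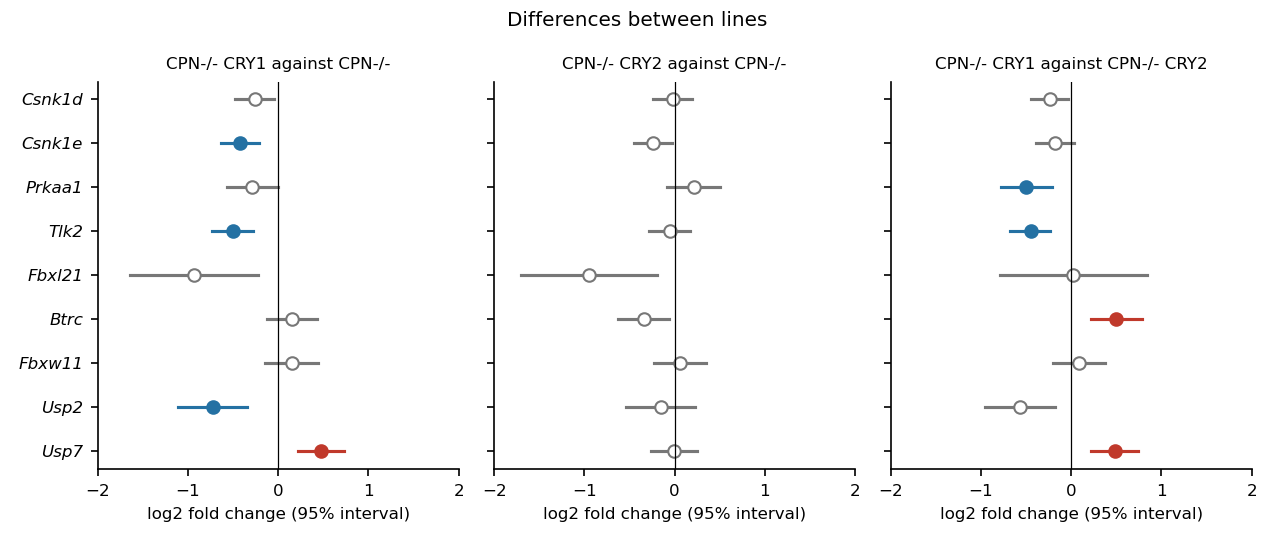
Log2 fold change (points) with its 95% interval (lines) for the 9 genes in the 3 comparisons, from edgeR's quasi-likelihood fit to all 6 libraries; filled blue points were called lower, filled red points called higher (adjusted p under 0.05) and open gray points were not called. The calls are 4 in the left panel, 0 in the middle panel and 4 in the right panel, and all called values lie between -0.72 and 0.50.

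The casein kinase 1 genes were taken first. Csnk1e (27373, mm10 chr15:79417852-79455579, minus strand) was at 92.6 and 94.4 CPM in CPN-/-, 69.1 and 70.9 in CPN-/- CRY1, with 80.5 and 77.8 in CPN-/- CRY2. The 3 lines did not overlap, with CPN-/- CRY2 in between. Relative to CPN-/-, Csnk1e was lower in the CRY1 line (log2 fold change -0.42, SE 0.09, adjusted p = 0.017). For CPN-/- CRY2 the difference from CPN-/- was -0.24 (adjusted p = 0.17). The CRY lines differed by -0.18 (adjusted p = 0.23), so Csnk1e was not called between them in this fit. It was called when only the 4 libraries of the CRY lines were fitted, where 49.7% of all tested genes were. With the median of genes within 5 Mb removed, the value turned to 0.29 and was not called. Csnk1d (104318, chr11:120957709-120991350, minus strand), the more abundant paralog, was at 228 and 217 CPM in CPN-/-, 184 and 186 in CPN-/- CRY1, with 218 and 219 in CPN-/- CRY2. Only the CPN-/- CRY1 libraries stood apart, below all others, but the difference from CPN-/- did not pass the test (-0.26, SE 0.09, adjusted p = 0.073), nor did that from CPN-/- CRY2 (-0.24, adjusted p = 0.12). Per kilobase, Csnk1d was 2.05 times Csnk1e in CPN-/-, 2.29 times in CPN-/- CRY1 and 2.39 times in CPN-/- CRY2.

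Prkaa1 (105787, chr15:5143861-5181899, plus strand) was at 115 and 93.4 CPM in CPN-/-, 83.3 and 87.7 in CPN-/- CRY1, with 123 and 118 in CPN-/- CRY2. The CRY lines lay on either side of the parental line, whose own libraries were the farthest apart. Relative to the CRY2 line, Prkaa1 was lower in the CRY1 line (-0.50, SE 0.12, adjusted p = 0.035), while neither line differed from CPN-/- by the test (-0.29, adjusted p = 0.12, and 0.21, adjusted p = 0.32). Prkaa2, which encodes the other catalytic AMPK subunit, was far less abundant: Prkaa1 was 15.3, 12 and 13.7 times Prkaa2 per kilobase in CPN-/-, CPN-/- CRY1 and CPN-/- CRY2.

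Tlk2 (24086, chr11:105167895-105283959, plus strand) was at 111 and 103 CPM in CPN-/-, 75.4 and 75.5 in CPN-/- CRY1, with 106 and 100 in CPN-/- CRY2. The CPN-/- CRY1 libraries were below the other 4, which overlapped. Like Usp7, it was called against both other lines in the same direction (-0.50 against CPN-/-, SE 0.09, adjusted p = 0.011, and -0.45 against CPN-/- CRY2, SE 0.09, adjusted p = 0.021), comparisons that share the CPN-/- CRY1 libraries. Its paralog Tlk1 was higher in CPN-/- CRY1 than in CPN-/- (116 against 84.2 CPM, 0.47, SE 0.14, adjusted p = 0.047). Per kilobase, the Tlk2 to Tlk1 ratio was 0.913 and 1.09 in the CPN-/- libraries, 0.513 and 0.497 in CPN-/- CRY1, with 0.748 and 0.756 in CPN-/- CRY2, with no overlap between lines. Tlk2 exons share 775 bases with the antisense gene 1700052K11Rik, and stretches of its transcript are at least 95% identical to 4 processed pseudogenes. Neither the strand setting nor the treatment of multimapping reads is given in the sources used here. Part of the Tlk2 count may therefore belong elsewhere, and the same limit holds for other members. On the opposite strand, Csnk1e exons share 267 bases with Gm16059, those of Btrc 235 with Gm6807 and those of Csnk1d 63 with Gm28192. A stretch of 316 bases of the Usp7 transcript is 95.3% identical to a processed pseudogene.

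**Figure D3:**
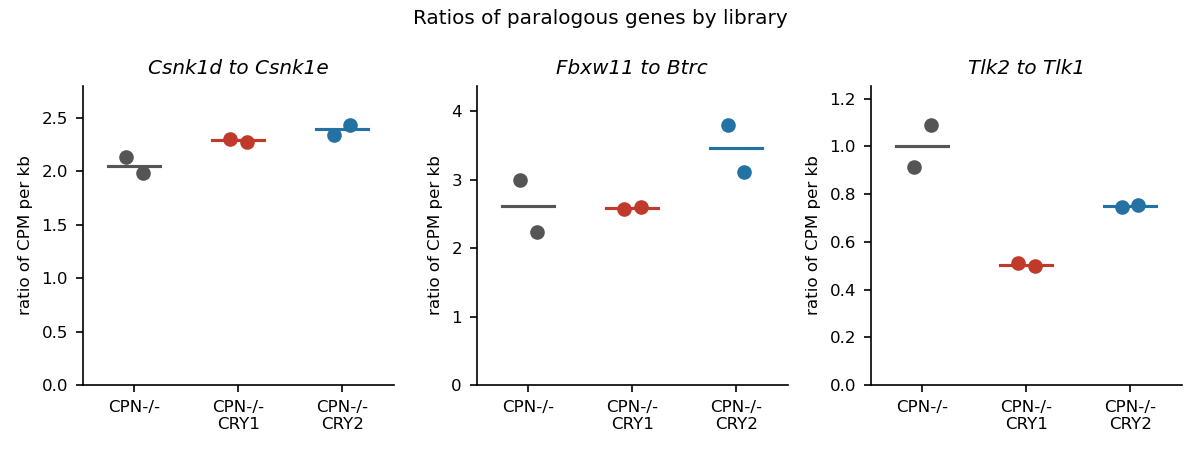
Ratio of CPM per kilobase between paralogous genes in each library (points, linear axis from 0) with line means (bars) for CPN-/- (gray), CPN-/- CRY1 (red) and CPN-/- CRY2 (blue). The Tlk2 to Tlk1 ratio has means of 1 in CPN-/-, 0.752 in CPN-/- CRY2 and 0.505 in CPN-/- CRY1, while Csnk1d to Csnk1e ranges from 1.98 to 2.43 over all libraries.

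Among the F-box genes, Btrc (12234, chr19:45363688-45533343, plus strand) was at 29.6 and 31.9 CPM in CPN-/-, 34.3 and 34.1 in CPN-/- CRY1, with 22.1 and 26.3 in CPN-/- CRY2. The 3 lines did not overlap, and CPN-/- lay between the CRY lines. Btrc was higher in CPN-/- CRY1 than in CPN-/- CRY2 (0.50, SE 0.12, adjusted p = 0.032), and neither line was called against CPN-/- (0.15, adjusted p = 0.36, and -0.34, adjusted p = 0.15). Fbxw11 (103583, chr11:32642555-32746816, plus strand) was at 119 and 95.9 CPM in CPN-/-, 119 and 120 in CPN-/- CRY1, with 113 and 111 in CPN-/- CRY2. One CPN-/- library was the lowest of all 6 and the other matched CPN-/- CRY1, and no comparison called Fbxw11 (0.15, 0.06 and 0.09, adjusted p = 0.39, 0.78 and 0.68). Fbxw11 was thus the more abundant beta-TrCP transcript in every library, at 2.23 to 3.8 times Btrc per kilobase.

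Fbxl21 (213311, chr13:56522388-56537898, plus strand) was the least abundant member, with 31 and 25 reads in CPN-/-, 22 and 12 in CPN-/- CRY1, with 15 and 12 in CPN-/- CRY2. Both CRY lines had fewer reads than CPN-/- in every library, and their log2 differences from CPN-/- were the largest of the set (-0.93, 95% interval -1.64 to -0.22, adjusted p = 0.064, and -0.95, 95% interval -1.70 to -0.20, adjusted p = 0.14), but neither passed the test at this depth. Since Fbxl21 spanned the widest range of line means (0.94 on the log2 scale), its profile over the 6 libraries was compared with those of 12600 other genes. The most similar profiles were those of Gpr108, Zfp940 and Ccdc191 (Pearson r 0.992, 0.987 and 0.986), and 36 genes exceeded 0.95 over these 6 libraries. These are the highest of 12600 correlations over 6 libraries, with Fbxl21 at 12 to 31 reads, and shared regulation was not tested.

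The deubiquitinase genes moved in opposite directions in CPN-/- CRY1. Usp2 (53376, chr9:44067021-44095627, plus strand) was at 5 and 5.49 CPM in CPN-/-, 3.1 and 3.24 in CPN-/- CRY1, with 5.18 and 4.22 in CPN-/- CRY2, which corresponds to 100 to 159 reads per library. The CPN-/- CRY1 libraries were the lowest, and CPN-/- and CPN-/- CRY2 overlapped. Relative to CPN-/-, Usp2 was lower in the CRY1 line (-0.72, SE 0.16, 1.65-fold, adjusted p = 0.021), the largest called difference among the 9 genes. CPN-/- CRY2 was not called against CPN-/- (-0.15, 95% interval -0.54 to 0.23, adjusted p = 0.56), and the difference between the CRY lines stopped short of the threshold (-0.57, SE 0.17, adjusted p = 0.061). The Usp2 exons share 200 bases with Gm39325 and Gm49380 on the opposite strand. Usp7 (252870, chr16:8688722-8757067, minus strand) was at 198 and 173 CPM in CPN-/-, 250 and 265 in CPN-/- CRY1, with 191 and 179 in CPN-/- CRY2. The CPN-/- CRY1 libraries were above the other 4, and Usp7 was called higher against CPN-/- (0.47, SE 0.11, adjusted p = 0.022) and against CPN-/- CRY2 (0.48, SE 0.11, adjusted p = 0.027). The ratio of Usp7 to Usp2 per kilobase was 34.4 in CPN-/-, 78.4 in CPN-/- CRY1 and 38.2 in CPN-/- CRY2.

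Usp2 had the largest called difference and is known as a clock output, so its promoter sequence is shown. RefSeq (GRCm38.p6) lists 1 Usp2 start in the table used, inside the annotated gene, and the 250 bases before it, at chr9:44084670-44084919 on the plus strand, read as follows, with CpG pairs in capitals.
Usp2: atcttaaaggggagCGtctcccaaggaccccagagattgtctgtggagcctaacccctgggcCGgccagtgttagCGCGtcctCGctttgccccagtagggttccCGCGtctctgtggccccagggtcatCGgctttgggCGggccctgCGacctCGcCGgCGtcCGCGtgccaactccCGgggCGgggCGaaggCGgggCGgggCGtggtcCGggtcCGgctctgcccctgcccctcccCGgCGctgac

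These 250 bases hold 25 CpG pairs, a number reached by 10.7% of 32851 RefSeq promoter windows of this length, and no CANNTG, the general E-box letters, which 66.2% of those windows hold. Promoter windows of 300 bases, from 250 before to 50 after a start, were listed for 7 of the 9 genes, 11 windows in all. None of the 11 held CACGTG on either strand (7.15% of 32851 windows do), CACGTT on either strand (4.68%), or the D-box letters TTATGTAA or TTACGTAA on either strand (1.06%). AGGTCA, the core of the ROR element, was found once, in 1 of 2 windows of Tlk2 (16.3% of all windows hold it). As for Usp2, the windows of Csnk1e, Usp7 and Tlk2 lie inside the annotated gene, so the sequence before its outermost start was not read. The counts above are of letters in short windows, not measurements of binding.

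Leaving out a library changed which genes passed while called directions stayed. In CPN-/- CRY1 against CPN-/-, 6 of 9 genes were called without CPN-/- replicate 1, where 63% of all tested genes were called, and 7 of 9 without CPN-/- replicate 2, where 44.1% were. None was called by edgeR's quasi-likelihood test without either CPN-/- CRY1 library, where 5 and 4 had an unadjusted p under 0.05 and the share of all tested genes called was 4.74% and 4.64%. Usp2 and Tlk2 alone were called without either CPN-/- CRY2 library (adjusted p = 0.047 and 0.048), beside 12.5% of all tested genes. Between the CRY lines, 7 genes were called without either CPN-/- library, beside 48.4% and 47.7% of all tested genes, and 0 without any 1 of the other 4, where 3 to 5 had an unadjusted p under 0.05 and 3.32% to 3.42% of all tested genes were called. In CPN-/- CRY2 against CPN-/-, 4 genes were called without CPN-/- replicate 1 and 2 without CPN-/- replicate 2, beside 56.4% and 22.1% of all tested genes. With a correction for the dependence on transcript length in each library, 6, 2 and 7 genes were called in the 3 comparisons, and the share of all tested genes called rose to 39.5%, 16.8% and 33.2%.

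The position of each gene was then set beside its fold change, because whole chromosomes differed between CPN-/- CRY1 and the other lines. Over all tested genes of chromosome 15 the median log2 fold change in CPN-/- CRY1 against CPN-/- was -0.36, and it was 0.27 on chromosome 16 and 0.31 on chromosome 19, beside -0.11 on chromosome 11, 0.02 on chromosome 9 and 0 on chromosome 13. Csnk1e and Prkaa1 are on chromosome 15, Usp7 on chromosome 16 and Btrc on chromosome 19. Csnk1e was 0.06 below and Prkaa1 0.08 above the median of chromosome 15, and Usp7 was 0.20 above that of chromosome 16. All 4 lay inside the interquartile range of their chromosome. Between the CRY lines the medians were -0.43, 0.35 and 0.46 for chromosomes 15, 16 and 19. The called values of Prkaa1 (-0.50), Usp7 (0.48) and Btrc (0.50) again lay inside the interquartile range of their chromosome. The called value of Tlk2 (-0.45) lay below that of chromosome 11 (-0.36 to 0.13). Without a call, Usp2 (-0.57) lay below the range of chromosome 9 (-0.12 to 0.23) and Csnk1e (-0.18) above that of chromosome 15 (-0.72 to -0.21). In CPN-/- CRY1 against CPN-/-, 3 members lay below the range of their chromosome. Usp2 was 0.74 below the median of chromosome 9, where 6.82% of tested genes had a lower value. Tlk2 was 0.39 below that of chromosome 11 (18.4% lower) and Fbxl21 0.93 below that of chromosome 13 (6.84% lower).

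**Figure D4:**
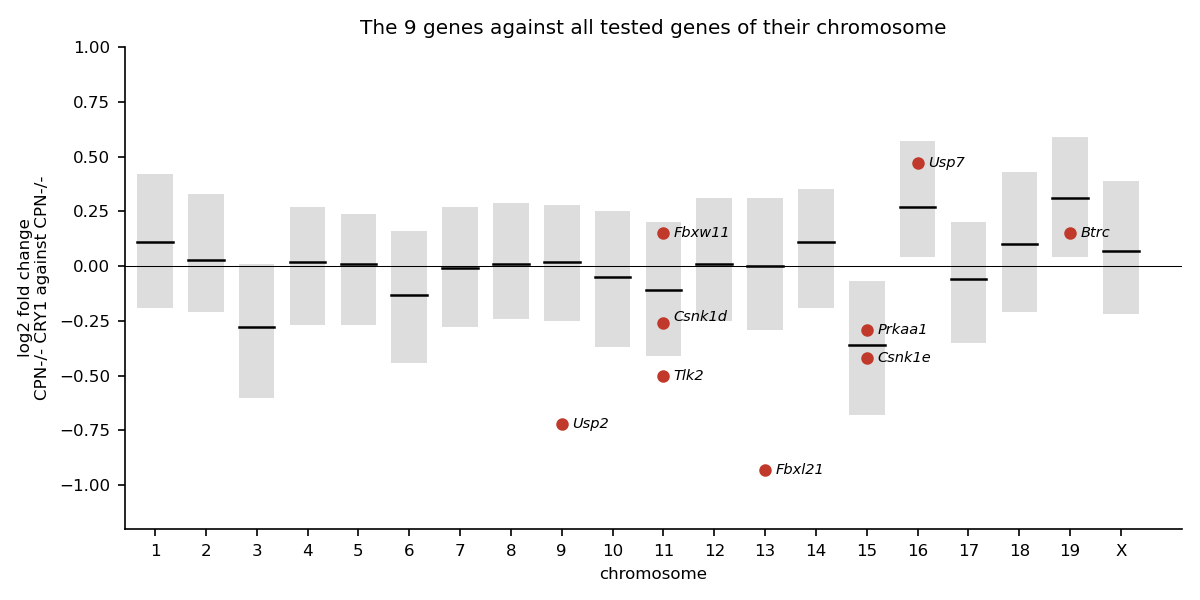
Log2 fold change in CPN-/- CRY1 against CPN-/- by chromosome: gray boxes span the interquartile range of all tested genes, black bars are chromosome medians and red points are the 9 genes. Csnk1e, Prkaa1, Usp7 and Btrc lie inside the shifted boxes of chromosomes 15, 16 and 19. Usp2, Tlk2 and Fbxl21 lie below the boxes of chromosomes 9, 11 and 13.

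The same comparison was made with nearer genes, those within 5 Mb on either side. Around Tlk2 the 153 tested neighbors had a median of -0.32 in CPN-/- CRY1 against CPN-/- and -0.42 against CPN-/- CRY2, beside -0.50 and -0.45 for Tlk2 itself. Around Csnk1d the 126 neighbors had medians of -0.39 and -0.40, while the 38 neighbors of Fbxw11, also on chromosome 11, had 0.11 and -0.04. The 28 neighbors of Prkaa1 had -0.43 and -0.65, the 184 of Csnk1e -0.45 and -0.44, the 66 of Usp7 0.30 and 0.37, and the 95 of Btrc 0.32 and 0.44. The 60 neighbors of Usp2 had medians of 0.10 and 0.03, of the opposite sign to Usp2 in both comparisons, and the 66 neighbors of Fbxl21 had -0.04 and 0.09. The CRY2 line was not free of such shifts. In CPN-/- CRY2 against CPN-/-, the neighbors of Prkaa1 had a median of 0.48, beside 0.21 for Prkaa1 itself. Neighbors of the other members had medians of -0.17 to 0.10 there, with -0.15 around Btrc.

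**Figure D5:**
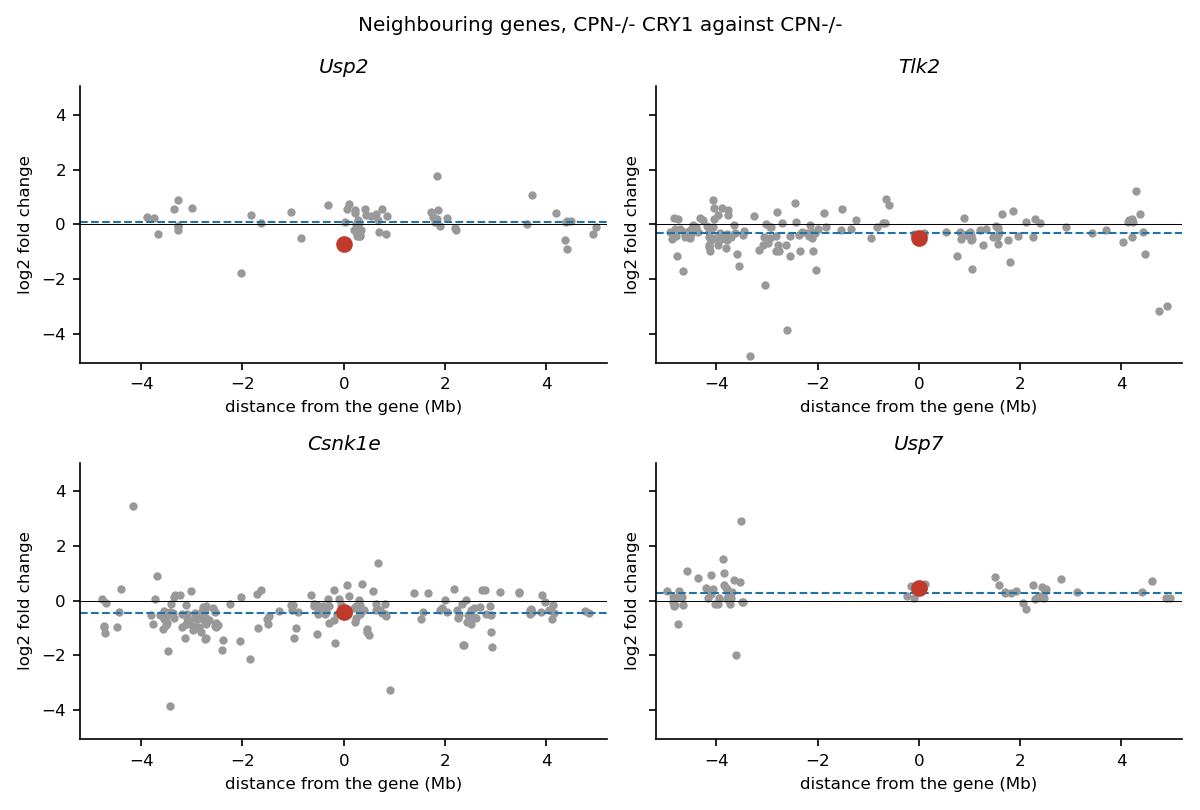
Log2 fold change in CPN-/- CRY1 against CPN-/- of tested genes within 5 Mb (gray) of Usp2, Tlk2, Csnk1e and Usp7 (red), plotted by distance from the gene in Mb; the dashed blue line is the median of the neighbors. Tlk2, Csnk1e and Usp7 lie near medians of -0.32, -0.45 and 0.30, and Usp2 lies below a median of 0.10.

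When these shifts were taken out of the fit, most calls on the 9 genes were lost. With each line's chromosome medians removed, Tlk2 (-0.40, adjusted p = 0.028) and Usp2 (-0.76, adjusted p = 0.022) were called in CPN-/- CRY1 against CPN-/-, and Csnk1e (-0.05, adjusted p = 0.72) and Usp7 (0.21, adjusted p = 0.19) were not. With the median of neighbors within 5 Mb removed, Usp2 was the one gene called (-0.85, SE 0.16, adjusted p = 0.015), and Tlk2 was at -0.17 (adjusted p = 0.23). Over all tested genes 3423 were called in this comparison before correction, and 2804 (19.9%) and 2900 (20.6%) under the 2 corrections. Of the 3423 genes, 2543 and 2445 were among those calls. Between the CRY lines no member was called under either correction (0 of 9 by edgeR's quasi-likelihood test, with 3 and 2 genes at an unadjusted p under 0.05), beside 1469 (10.4%) and 1395 (9.92%) calls over all tested genes. What shifted these chromosomes in the CRY1 line, or the genes around Prkaa1 in the CRY2 line, was not tested. A line grown from 1 colony cannot be told apart from its transgene.

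Other genes of the same machinery were read from 6 lists of 45 genes, all of them tested. In CPN-/- CRY1 against CPN-/-, 5 were called higher and 1 lower, which is 13.3% of the 45 beside 24.3% of all tested genes. Among 8 ligase partners, the CUL4 adaptor gene Ddb1 was higher (0.45, adjusted p = 0.018) and the RING subunit gene Rbx1 was lower (-0.43, adjusted p = 0.049), with a list median of 0.07. Of 15 other clock kinase genes 2 were higher, Dyrk1a (0.72, adjusted p = 0.014) and Gsk3b (0.70, adjusted p = 0.038), and none lower (median 0.07). Both are on chromosome 16. Of 10 genes of AMPK and its upstream kinases, Prkag2, a regulatory gamma subunit gene, was higher (0.56, adjusted p = 0.008, median 0.14). By edgeR and by DESeq2 none of 5 phosphatase genes and none of 4 other deubiquitinase genes were called (medians -0.07 and 0, with 0 and 1 at an unadjusted p under 0.05 in edgeR), and Usp21 was at -0.27 (adjusted p = 0.098). Of 3 TLK partner genes, Tlk1 alone was called. Among kinases of the same family, Csnk1a1 was at 0.12 (adjusted p = 0.41) and Prkaa2 at 0.04 (adjusted p = 0.89).

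Of these 6 calls, those of Ddb1, Rbx1, Dyrk1a and Gsk3b are on chromosomes 15, 16 or 19. With chromosome medians removed, 1 of the 45 was called higher (Prkag2) and 1 lower (Usp21), beside 19.9% of all tested genes called. With the median of neighbors removed, 4 of the 45 were called higher (Dyrk1a, Prkag2, Tlk1 and Csnk1g3) and none lower, beside 20.6% of all tested genes called. Prkag2 was the one gene called under all 3 fits. In CPN-/- CRY2 against CPN-/- none of the 45 genes was called by edgeR, beside 6.66% of all tested genes, and 6 had an unadjusted p under 0.05. DESeq2 called 1, Mapk3, beside 6.47% of all genes in its test. Between the CRY lines Ddb1 (0.53, adjusted p = 0.014) and Dyrk1a (0.52, adjusted p = 0.048) were higher in CPN-/- CRY1. The LKB1 partner gene Strada was lower (-0.45, adjusted p = 0.034). These 3 calls are 6.67% of the 45, beside 16.3% of all tested genes. None of the 45 was called under either correction (3 at an unadjusted p under 0.05 under each), beside 10.4% and 9.92% of all tested genes.

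For reference, 8 genes were read that are known to be driven through E-boxes by the CLOCK-BMAL1 activator that CRY represses. They are Dbp, Tef, Hlf, Ciart, Bhlhe40, Bhlhe41, Per3 and Wee1. All 8 were called lower in the CRY1 line than in CPN-/-, beside 13.1% of all tested genes, with a median log2 fold change of -1.94. In CPN-/- CRY2 against CPN-/-, 4 of the 8 were called lower, beside 4.08% of all tested genes (median -0.88). Tef, Per3 and Wee1 had lower values without a call, and Bhlhe41 was at 0.06. All 8 were called lower in the CRY1 line than in the CRY2 line, beside 8.57% of all tested genes (median -1.1). All 8 were called lower in CPN-/- CRY1 under both positional corrections. The list was chosen with results of these libraries known, so its direction is not independent evidence. Per1, Per2, Nr1d1 and Nr1d2 are also such targets but are deleted in these lines and were left out of it. Transcripts still counted from them differed in CPN-/- CRY1 against CPN-/- by -1.97 for Per1 and -2.30 for Per2, both called, and by -0.34 for Nr1d1 (adjusted p = 0.057) and -0.28 for Nr1d2 (adjusted p = 0.095), which were not. Ciart, which encodes a clock repressor, was at 34.6 and 39.3 CPM in CPN-/-, 3.79 and 3.6 in CPN-/- CRY1, with 13.5 and 14.1 in CPN-/- CRY2. Usp2, at 1.65-fold, moved in the direction of these genes and by less than 7 of the 8, Wee1 being at -0.47.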

How the data were processed

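Poly(A) RNA of 2 separate RNA preparations from each of 3 MEF lines was sequenced as paired reads from a stranded library. The authors aligned reads to mm10 with STAR and deposited whole-number counts per Entrez gene from featureCounts, per the labels and methods; the annotation, strand setting and treatment of multimapping reads are not given in the sources used here. The 9 genes and all lists were chosen with earlier results of these data known. Every member is named; from each list up to 2 called genes per direction were named, beside paralogs and, for the gene of widest range, the 3 most similar profiles.

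Counts were tested with edgeR 4.0.16 (R 4.3.3): filterByExpr (minimum count 10, minimum total 15), TMM, all 6 libraries in 1 quasi-likelihood fit by line, two-sided, Benjamini-Hochberg adjustment over 14069 genes, called at 0.05. CPM uses TMM-scaled library sizes. Gene positions came from a RefSeq table of mm10. Strands, transcripts and lengths came from GENCODE vM21 (mm10), and promoter windows from RefSeq. Alternatives used DESeq2 1.42.0, apeglm 1.24.0, other scalings, filters and thresholds, length, chromosome and 5 Mb offsets, and each library left out. The fit and both positional offsets were also run on simulated data as a self-test. Those data had the same spread for every gene and library, an even shift of a whole chromosome and no length trend. They therefore do not show how the offsets behave with the spread of the CPN-/- libraries. Mapk3 and Csnk1g3 are named because a count of calls includes them, after their values were seen. In the lists as first drawn up 2 further genes are not reported here, whatever their values, and the list counts leave them out. Depth of 25957409 to 36106949 reads leaves Fbxl21, at 12 to 31 reads, the least certain.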

Additional observations from a re-analysis of the deposited data

Results flagged for a closer look

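In 4 genes the difference from CPN-/- was unequal between the CRY lines by the test of that difference itself, the fit of CPN-/- CRY1 against CPN-/- CRY2: Btrc (0.50), Usp7 (0.48), Prkaa1 (-0.50) and Tlk2 (-0.45). Against CPN-/-, Btrc was at 0.15 in CPN-/- CRY1 and -0.34 in CPN-/- CRY2, Usp7 at 0.47 and -0.01, Prkaa1 at -0.29 and 0.21, and Tlk2 at -0.50 and -0.05. The medians of their neighbors within 5 Mb, in CPN-/- CRY1 against CPN-/- CRY2, were 0.44, 0.37, -0.65 and -0.42, and with these removed the values were 0.02, 0.11, 0.27 and -0.04, none of them called. The cause of the regional differences was not tested.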

How the results depend on the processing

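The 2 libraries per line are RNA preparations of the same cells, Usp2 rests on 100 to 159 reads per library and Fbxl21 on 12 to 31. Leaving out a library leaves 1 in its line, which is then assumed to vary like the other lines.

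Counts of called genes are given in the order of the report, the CRY1 line against the parental line, the CRY2 line against the parental line and the CRY lines against each other, where the main values were 3423, 937 and 2292 over all tested genes and 4, 0 and 4 of the 9 members. Fitting only the 4 libraries compared gave 1798, 473 and 6838, with 2 members in the first and 7 in the third. Those 7 were Csnk1d, Csnk1e, Btrc, Usp2, Usp7, Prkaa1 and Tlk2, beside 49.7% of all tested genes. DESeq2 with apeglm s-values gave 8409 and 4377 in the first 2, with 8 and 3 members. An adjusted p under 0.01 gave 1184, 363 and 854, with 0 members in the first and the third. A log2 fold change of at least 1 gave 1089, 526 and 828, with 0 members in the first and the third. Removing the length trend gave 5552, 2359 and 4671, with 2 members in the second and 7 in the third. Removing chromosome medians gave 2 members in the first and, in the third, 1469 genes and 0 members. Removing the median of neighbors within 5 Mb, added after seeing the data, gave 1 member in the first and, in the third, 1395 genes and 0 members. At least 10 reads in every library gave 583 in the second. Leaving out 1 library at a time gave 663 to 8980, 199 to 8046 and 475 to 6897 genes, and 0 to 7, 0 to 4 and 0 to 7 members. The highest counts came without a CPN-/- library, and the cause was not tested.

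None of the called values changed sign under any fit except Csnk1e in CPN-/- CRY1 against CPN-/- (0.03) and Prkaa1 between the CRY lines (0.27), both with the median of neighbors removed. Uncalled values that turned with chromosome medians removed were Btrc (-0.16) and Prkaa1 (0.09) in the first comparison, Usp7 (0.07) in the second, and Fbxl21 (-0.01) and Csnk1e (0.27) in the third. With the median of neighbors removed these were Csnk1d (0.09), Btrc (-0.18) and Prkaa1 (0.09) in the first, Fbxw11 (-0.05), Usp7 (0.10) and Prkaa1 (-0.18) in the second, and Fbxl21 (-0.06), Csnk1d (0.13) and Csnk1e (0.29) in the third. In the second, Fbxw11 was at -0.02 with the length trend removed. Leaving out 1 library at a time, the values of the second comparison ran from -0.08 to 0.23 for Fbxw11, -0.10 to 0.10 for Usp7, -0.10 to 0.01 for Tlk2 and -0.05 to 0.01 for Csnk1d, and those of the third from -0.35 to 0.29 for Fbxl21. The cause was not tested.

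Replicate numbers are shared by the labels, but same-numbered libraries did not deviate together (correlations -0.07, 0.12 and -0.03). With a replicate block the counts were 3458, 977 and 2188 genes and 4, 0 and 4 members.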
